A study of Rattus norvegicus with 16 samples.

Results

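The tumor necrosis factor (TNF) superfamily, its receptors and the TRAF adaptors were read from the corneas of rats 2 days after suturing. Members were the probe sets whose single gene symbol begins with Tnfsf, Tnfrsf, or Traf and a digit, or is Tnf, Lta, Ltb, Ltbr, Cd40, Cd40lg, Cd27, Cd70, Fas, Faslg or Ngfr. The rule found 52 of 31042 probe sets, for 39 of the 14217 genes that are named by a single symbol. They are 11 ligands, 5 death domain receptors, 12 receptors grouped as TRAF-binding, the secreted decoy receptor *Tnfrsf11b*, 7 TRAFs and 3 TRAF3-interacting proteins. The last are *Traf3ip1*, *Traf3ip2* and *Traf3ip3*, which the letters of the rule take in although they are not TRAFs. The TRAF-binding group is a label by role and includes *Tnfrsf26*, whose binding of TRAFs was not checked. *Cd27* and *Cd70* were not analysed here.

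All animals were male wistar rats of 12-16 weeks, weighing 350-400 g, and the arrays carried whole-tissue RNA of 1 cornea each, in 4 groups of 4. Naïve corneas had no suture and no treatment. The other 3 groups had 2 sutures placed temporally, 1.5 mm from the limbus, and 4 eyedrops a day over 2 days (8 in all) of goat IgG (20 mg/ml in the labels, which also call it an anti-IgG antibody), of a rat-specific anti-*Vegf* antibody (20 mg/ml in the labels, where the study's methods give µg/ml) or of the glucocorticoid dexamethasone (1 mg/ml). The comparisons ask which genes follow suturing with a sham antibody, with *Vegf* blocked and with a steroid. No sutured cornea went without drops and no naïve cornea had them, so that suture and drops cannot be told apart in a comparison with naïve, and the methods describe harvest of the part between sutures and limbus where the labels describe the cornea without scleral rim. Signals were deposited per probe set on a log2 scale, where a difference of 1 is a doubling. The arrays had medians between 6.55 and 6.62, and the number of arrays limits the precision.

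Ligands of the TNF superfamily are mostly trimers made at the cell membrane, and many are shed by proteases. Their receptors either carry a death domain, which recruits TRADD or FADD and can lead to cell death, or bind TRAF adaptors, which turn on NF-κB, JNK and p38 signaling. In an injured cornea, TNF and its relatives are known as signals between epithelium, keratocytes, vessels and incoming leukocytes that induce adhesion molecules, chemokines and proteases.

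A gene was read from its probe set with the highest mean signal and tested with limma on all arrays with Benjamini-Hochberg adjustment. A call against naïve needed an adjusted p below 0.05 and a change of at least 1.5-fold, and a call of one treatment against another needed only the adjusted p. The 3 comparisons with naïve share the naïve arrays, so their values stand side by side and are not independent. Of the 39 members, 25 lay above the 40th percentile of an array's signals on at least 4 arrays and 14 did not, and those 14 were kept in the tests. Since each array holds a whole piece of tissue, more cells of a type and more RNA per cell cannot be told apart.

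The tissue was checked against markers. The epithelial markers *Krt12* and *Krt5* had mean signals of 14.76 and 14.62 in naïve corneas. The 8 pan-leukocyte genes averaged 5.94 to 6.05 on the naïve arrays, 8.09 to 8.62 with IgG, 8.26 to 8.46 with anti-*Vegf* and 7.73 to 8.79 with dexamethasone; 8 of 8 were called higher in each sutured group and 0 of 8 differed between treatments. Of 5 neutrophil genes 4 rose in each sutured group, of 6 monocyte and macrophage genes 4 rose with IgG, 3 with anti-*Vegf* and 3 with dexamethasone, of 11 T and NK cell genes 1 rose in each and of 2 B cell genes none. The 3 markers of corneal endothelium all fell with IgG and with anti-*Vegf*, and 2 of 3 fell with dexamethasone. Of 4 keratocyte genes 1, 2 and 1 fell in that order, of 5 genes of vessel endothelium 1, 2 and 0, and of 4 Schwann cell and nerve genes 1 in each, while 1 of 6 epithelial genes rose in each. Between treatments, *Cd68* of the macrophage genes was lower with dexamethasone than with IgG (-0.86) and anti-*Vegf* (-0.81), the T cell genes *Cd3d* and *Cd3e* were lower than with IgG (-0.43 and -0.35), and *Aldh1a1* of the keratocyte genes and *Col8a2* of the endothelial genes were higher than with anti-*Vegf* (0.69 and 0.88). No other marker was called between treatments. Of all genes, 6.32%, 6.82% and 8.19% were called higher than naïve with IgG, anti-*Vegf* and dexamethasone, and 5.02%, 5.94% and 4.45% lower. Dexamethasone differed from IgG in 10.6% of all genes and from anti-*Vegf* in 7.13%. The 24 poly-A control probe sets, which read RNA added to the samples before labelling, had means of 4.93 to 5.16 on naïve and 5.03 to 5.40 on dexamethasone arrays against 6.80 to 7.44 with IgG and 6.75 to 7.02 with anti-*Vegf*. That split runs along every comparison of an antibody group with naïve or with dexamethasone. The part of these markers and controls in the results below was not tested.

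Members that rose in all sutured groups are shown first by their promoters. Those of *Tnfrsf1b* and *Traf3* were added, the members called with dexamethasone whose promoters hold a searched motif. Shared regulation was not tested. RefSeq (GRCr8) gave a promoter of 300 bases, from 250 before the gene start, for 29 of the 39 members. The members with no promoter shown or searched here are *Cd40*, *Cd40lg*, *Ngfr*, *Tnfrsf11a*, *Tnfrsf11b*, *Tnfrsf14*, *Tnfsf4*, *Tnfsf9*, *Tnfsf12* and *Traf6*. In all, 3 motifs were searched on both strands, with N for any base: a κB site (GGG, any 2 bases, TTTCC), an AP-1 site (TGANTCA) and a glucocorticoid response element (AGAACA, any 3 bases, TGTTC). Capitals mark matches, the rest is in lower case, and each run reads 5′ to 3′ along the gene.
Tnfrsf12a, chr10:13213599-13213898, - strand: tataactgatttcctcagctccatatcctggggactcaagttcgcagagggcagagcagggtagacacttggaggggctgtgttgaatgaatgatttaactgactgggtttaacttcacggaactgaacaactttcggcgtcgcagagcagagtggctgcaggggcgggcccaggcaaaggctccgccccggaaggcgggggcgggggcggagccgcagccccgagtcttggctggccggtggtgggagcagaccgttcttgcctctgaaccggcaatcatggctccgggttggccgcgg
Tnfrsf1a, chr4:159836869-159837168, + strand: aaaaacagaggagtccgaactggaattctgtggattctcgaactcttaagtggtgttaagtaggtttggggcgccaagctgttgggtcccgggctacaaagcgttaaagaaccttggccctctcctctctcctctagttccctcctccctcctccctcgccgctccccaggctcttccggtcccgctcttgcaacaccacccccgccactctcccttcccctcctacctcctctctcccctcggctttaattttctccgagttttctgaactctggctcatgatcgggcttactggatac
Ltbr, chr4:159801467-159801766, - strand: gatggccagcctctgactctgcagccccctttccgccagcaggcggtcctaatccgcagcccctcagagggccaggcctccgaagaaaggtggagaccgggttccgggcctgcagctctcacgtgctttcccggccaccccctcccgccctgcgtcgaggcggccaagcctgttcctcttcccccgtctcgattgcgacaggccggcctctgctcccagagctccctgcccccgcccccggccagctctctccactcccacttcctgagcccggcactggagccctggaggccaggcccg
Tnfrsf26, chr1:208252381-208252680, - strand: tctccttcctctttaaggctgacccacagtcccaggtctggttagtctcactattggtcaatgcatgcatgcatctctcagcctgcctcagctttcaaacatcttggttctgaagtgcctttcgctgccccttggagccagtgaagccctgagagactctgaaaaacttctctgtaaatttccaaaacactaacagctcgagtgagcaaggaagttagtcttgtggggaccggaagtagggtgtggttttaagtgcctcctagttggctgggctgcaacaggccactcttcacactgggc
Tnfsf13, chr10:54901766-54902065, - strand: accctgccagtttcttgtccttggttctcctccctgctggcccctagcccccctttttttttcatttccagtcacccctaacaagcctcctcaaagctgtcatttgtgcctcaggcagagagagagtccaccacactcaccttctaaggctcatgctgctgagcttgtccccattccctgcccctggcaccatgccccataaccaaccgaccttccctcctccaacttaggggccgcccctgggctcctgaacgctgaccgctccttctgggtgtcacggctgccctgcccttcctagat
Tnfrsf1b, chr5:162387362-162387661, - strand: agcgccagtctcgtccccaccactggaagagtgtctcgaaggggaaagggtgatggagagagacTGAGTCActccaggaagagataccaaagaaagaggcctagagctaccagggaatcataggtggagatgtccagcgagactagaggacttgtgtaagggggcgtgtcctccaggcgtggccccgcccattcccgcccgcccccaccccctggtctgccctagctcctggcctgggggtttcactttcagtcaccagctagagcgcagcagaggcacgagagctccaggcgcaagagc
Traf3, chr6:136026799-136027098, + strand: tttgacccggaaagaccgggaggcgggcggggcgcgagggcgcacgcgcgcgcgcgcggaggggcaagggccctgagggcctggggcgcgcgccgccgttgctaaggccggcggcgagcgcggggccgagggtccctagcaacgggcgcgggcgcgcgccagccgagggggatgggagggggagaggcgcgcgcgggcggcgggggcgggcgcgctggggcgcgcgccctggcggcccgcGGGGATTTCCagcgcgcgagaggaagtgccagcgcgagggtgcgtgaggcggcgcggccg

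The κB letters were in 1.51% of the promoters of 27457 genes and in 3 of the 29 member promoters, those of *Ltb*, *Tnfrsf4* and *Traf3*. In *Traf3* the match GGGGATTTCC begins at position -10, where -1 is the base before the gene start. The AP-1 letters were in 7.33% of all promoters and in 5 of 29 member promoters, those of *Fas*, *Tnfrsf1b*, *Tnfrsf8*, *Traf1* and *Traf3ip2*. In *Tnfrsf1b* the match TGAGTCA begins at position -186. The glucocorticoid response element was in 0.0364% of all promoters (10 genes) and in 0 of the 29. The promoters of *Tnfrsf12a*, *Tnfrsf1a*, *Ltbr*, *Tnfrsf26* and *Tnfsf13* held none of these letters in the window, and no printed promoter had overlapping matches. Their GC content ran from 50.7% in *Tnfrsf26* to 82.3% in *Traf3*, against a median of 52.3% over all promoters. In the same annotation *Ltbr* and *Tnfrsf1a* have 1 protein-coding gene between them, *Tnfsf13* and *Tnfsf12* are neighbours, and so are *Lta* and *Tnf*, *Tnf* and *Ltb*, and *Tnfrsf1b* and *Tnfrsf8*.

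Suturing with IgG drops came with higher signals of 4 receptors and 1 ligand. *Tnfrsf12a* rose 3.29-fold, *Tnfrsf26* 2.24-fold, *Tnfrsf1a* 1.86-fold, *Ltbr* 1.61-fold and *Tnfsf13* 1.7-fold relative to naïve. That is 5 of 39 members (12.8%), beside 11.3% of all 14217 genes. With anti-*Vegf* 5 members (12.8%) were called beside 12.8% of all genes, and with dexamethasone 9 (23.1%) beside 12.6%. The 5 genes called with IgG were the 5 called with anti-*Vegf* and were among the 9 called with dexamethasone, which added *Tnfrsf1b*, *Tnfrsf11b*, *Tnfsf12* and *Traf3*. Of the added members only *Tnfsf12* was also called in dexamethasone against both antibodies. *Traf3* was called against IgG alone, and *Tnfrsf1b* and *Tnfrsf11b* against neither. All calls were higher than naïve, where 6.32%, 6.82% and 8.19% of all genes were called higher and 5.02%, 5.94% and 4.45% lower, but with arrays centred on 7 reference genes the calls split into 4 higher and 2 lower with IgG, 3 and 3 with anti-*Vegf*, and 5 and 2 with dexamethasone. That scaling moved the median of all genes to -0.18, -0.23 and -0.19. The lower calls it added were *Ngfr*, *Tnfrsf25* and *Traf5*, which lay below naïve on the deposited scale as well. With no fold limit 10, 11 and 15 members passed the adjusted p, beside 29.2%, 30.6% and 28.5% of all genes. The arrays of naïve and sutured corneas did not overlap in 15, 12 and 13 members, beside 31.3%, 31.3% and 28.3% of all genes. The median log2 difference of the 39 members was 0.14, 0.08 and 0.11, beside -0.01, -0.01 and 0.00 over all genes.

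**Figure D1:**
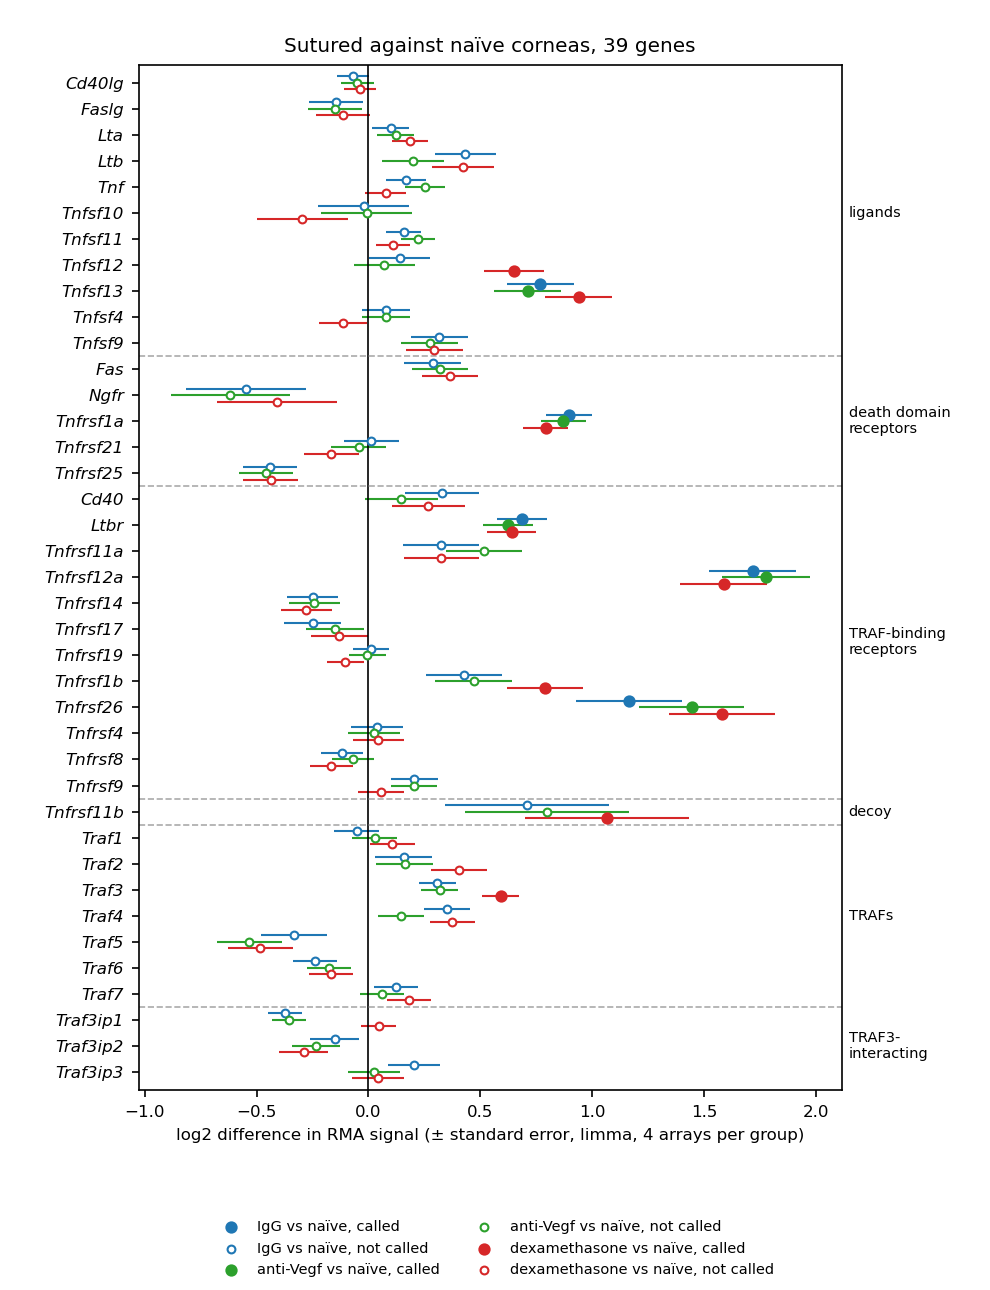
Log2 difference in signal between each sutured group and naïve corneas (x axis) for the 39 genes (y axis, grouped by role), with limma standard errors as bars. Filled points passed an adjusted p of 0.05 and 1.5-fold; they all lie to the right of 0, with *Tnfrsf12a* and *Tnfrsf26* farthest, while centring on 7 reference genes adds lower calls of *Ngfr*, *Tnfrsf25* and *Traf5*.

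*Tnfrsf12a* encodes Fn14, the receptor of the ligand TWEAK, and is known as a gene induced by growth factors and injury. The *Tnfrsf12a* signals were 8.06, 7.58, 7.41 and 7.70 in the naïve corneas, 9.48, 9.03, 9.62 and 9.47 with IgG, 9.22, 9.26, 9.52 and 9.84 with anti-*Vegf* and 8.76, 9.61, 9.17 and 9.56 with dexamethasone. Every sutured cornea lay above every naïve one, and the sutured groups overlapped one another. The log2 differences from naïve were 1.72, 1.78 and 1.59, each ± 0.20 (SE), with limma adjusted p of 1.50e-05, 1.00e-05 and 3.11e-05 in that order. It was the largest change among the members, and its call held in all 3 comparisons under every alternative and with any array left out.

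*Tnfrsf26* encodes a receptor of the family found in rodents. The *Tnfrsf26* signals were 4.91, 4.44, 4.65 and 4.86 in the naïve corneas, 5.26, 5.62, 6.36 and 6.27 with IgG, 6.29, 6.19, 6.25 and 5.89 with anti-*Vegf* and 5.63, 6.61, 6.50 and 6.44 with dexamethasone. Naïve and sutured arrays were apart, although IgG replicate 1 came near the highest naïve array, and the IgG and dexamethasone groups were spread more widely than the others. The naïve signals were dim, like those of *Tnfrsf14* (4.81 to 5.36 on naïve arrays), a member below the low-signal limit. *Tnfrsf26* passed that limit only through sutured arrays, so its changes are read from a dim baseline. The log2 differences were 1.16 ± 0.24 with IgG, 1.44 ± 0.24 with anti-*Vegf* and 1.58 ± 0.24 with dexamethasone, at limma adjusted p of 0.00176, 3.03e-04 and 1.69e-04. No other setting ended these calls, but the filter on low signals was no check here, since the sutured arrays let the gene pass it.

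*Tnfrsf1a* encodes TNFR1, the death domain receptor through which soluble TNF acts on most cells. Its signal was 10.27 to 10.39 on the naïve arrays, 11.09 to 11.43 with IgG, 11.07 to 11.38 with anti-*Vegf* and 10.91 to 11.34 with dexamethasone. The naïve corneas were tightly grouped and lay below all sutured ones. The log2 differences from naïve were 0.90, 0.87 and 0.79 (limma adjusted p = 1.45e-05, 1.78e-05 and 4.51e-05), with an SE of 0.10. It rose under every alternative in all 3 comparisons. Of the other death domain receptors, *Fas*, *Ngfr* (the p75 neurotrophin receptor), *Tnfrsf21* (DR6) and *Tnfrsf25* (DR3), none was called. *Ngfr* differed from naïve by -0.55 ± 0.27, -0.62 ± 0.27 and -0.41 ± 0.27 (limma adjusted p = 0.147, 0.105 and 0.324), and *Tnfrsf21* by 0.01, -0.04 and -0.17. *Tnfrsf25* was lower at an adjusted p of 0.0134, 0.0105 and 0.0156 but by log2 -0.44, -0.46 and -0.44, under 1.5-fold. *Tnfrsf25* was below the low-signal limit, and its highest IgG array (5.87) lay above its lowest naïve array (5.84).

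*Ltbr* encodes the lymphotoxin beta receptor, which is known for switching on the alternative NF-κB pathway. Its signal was 9.71 to 9.91 on the naïve arrays, 10.41 to 10.66 with IgG, 10.27 to 10.59 with anti-*Vegf* and 10.22 to 10.68 with dexamethasone, with no overlap between naïve and sutured corneas. It rose by log2 0.69, 0.62 and 0.64 (SE 0.11; limma adjusted p = 3.07e-04, 5.82e-04 and 5.72e-04). These values are close to the 1.5-fold limit: the call was lost in all 3 comparisons with reference-gene centring (0.51, 0.40 and 0.45), with anti-*Vegf* without its replicate 4 (0.57), and with dexamethasone without its replicate 2 (0.58) or 4 (0.56). The ligands *Lta* and *Ltb*, which signal through it, were not called. *Ltb* differed from naïve by 0.43, 0.20 and 0.42 (adjusted p = 0.0283, 0.323 and 0.0358 in limma) and *Lta* by 0.10, 0.12 and 0.18.

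*Tnfsf13*, the ligand APRIL, known for keeping plasma cells alive, was the ligand called in all sutured groups. Its signal was 7.56 to 8.16 on the naïve arrays, 8.54 to 9.08 with IgG, 8.41 to 8.83 with anti-*Vegf* and 8.72 to 9.10 with dexamethasone. All sutured corneas were above all naïve ones. The log2 differences were 0.77 ± 0.15, 0.71 ± 0.15 and 0.94 ± 0.15 (limma adjusted p = 0.00134, 0.00224 and 2.98e-04). Its second probe set moved the same way, by 0.66, 0.56 and 0.59, and passed 1.5-fold with IgG and dexamethasone but not with anti-*Vegf*. With reference-gene centring the anti-*Vegf* value was 0.49, which was not called. *Tnfrsf17*, a receptor of APRIL and a marker of plasma cells, was among the dim members and differed by -0.25, -0.15 and -0.13 with no call.

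**Figure D2:**
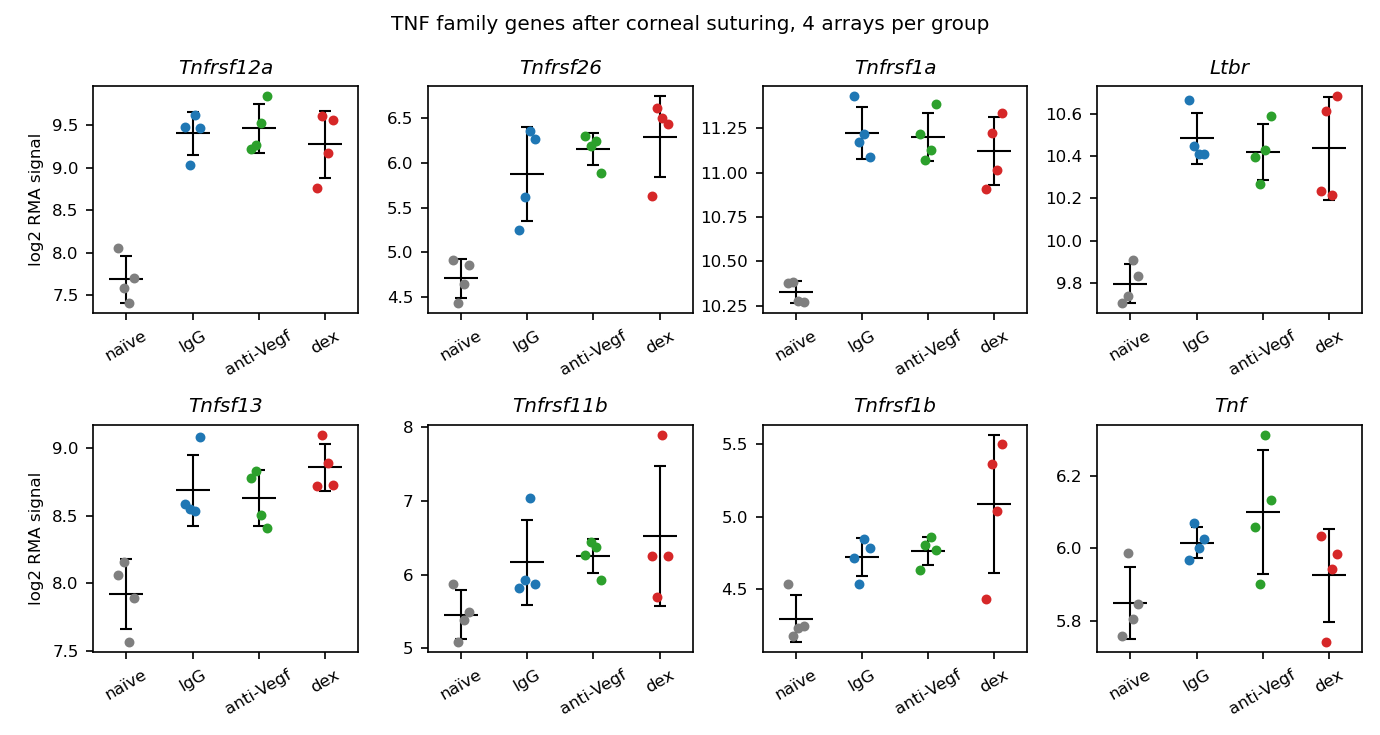
Log2 signal (y axis) of 8 members on each of the 16 arrays by group (x axis; dex, dexamethasone), with the group mean and SD in black and a separate scale in each panel. *Tnfrsf12a*, *Tnfrsf26*, *Tnfrsf1a*, *Ltbr* and *Tnfsf13* show no overlap between naïve and sutured corneas, 1 dexamethasone array at 7.89 stands above the rest in *Tnfrsf11b*, and the *Tnf* groups overlap.

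*Tnf* itself, the founding ligand, was not called in any comparison. The *Tnf* signals were 5.76, 5.99, 5.80 and 5.85 in the naïve corneas, 5.97, 6.07, 6.001 and 6.02 with IgG, 6.06, 5.90, 6.31 and 6.13 with anti-*Vegf* and 6.03, 5.74, 5.94 and 5.98 with dexamethasone. The highest naïve array lay above the lowest array of each sutured group. The log2 differences from naïve were 0.17 ± 0.09, 0.25 ± 0.09 and 0.08 ± 0.09, with limma adjusted p of 0.194, 0.0502 and 0.627. A second, dimmer probe set differed by 0.02, -0.06 and 0.36, and its dexamethasone value leaned on replicate 2 at 5.90, with the other 3 arrays between 4.88 and 4.96. These data give the RNA in the tissue at a single time and say nothing of the protein, which is shed.

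Of the other ligands, *Cd40lg*, *Faslg*, *Tnfsf4* (OX40L), *Tnfsf9* (4-1BBL), *Tnfsf10* (TRAIL) and *Tnfsf11* (RANKL) were not called. Their log2 differences from naïve lay between -0.30 (*Tnfsf10* with dexamethasone) and 0.32 (*Tnfsf9* with IgG). *Cd40lg*, *Lta*, *Tnfsf4*, *Tnfsf10* and *Tnfsf11* were below the low-signal limit. *Tnfsf11* passed the adjusted p with anti-*Vegf*, at 0.22 with 0.0442 by limma, under 1.5-fold and on a dim signal (3.20 to 3.34 on naïve and 3.40 to 3.64 on anti-*Vegf* arrays).

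Among the remaining receptors grouped as TRAF-binding, *Tnfrsf1b* was called with dexamethasone. It encodes TNFR2, which is found mainly on leukocytes and endothelial cells. The *Tnfrsf1b* signals were 4.53, 4.17, 4.23 and 4.25 in the naïve corneas, 4.72, 4.54, 4.85 and 4.79 with IgG, 4.63, 4.80, 4.86 and 4.77 with anti-*Vegf* and 4.43, 5.37, 5.04 and 5.50 with dexamethasone. With dexamethasone 3 arrays were above all others of the study and replicate 1 lay below the highest naïve array. The log2 difference was 0.79 ± 0.17 (limma adjusted p = 0.00305), and it was 0.43 ± 0.17 with IgG and 0.47 ± 0.17 with anti-*Vegf* (adjusted p = 0.0776 and 0.0533). Dexamethasone was not called against IgG (0.36 ± 0.17, adjusted p = 0.202) or anti-*Vegf* (0.32 ± 0.17, adjusted p = 0.298) by limma, though both were called without dexamethasone replicate 1 (0.58 and 0.54). That replicate also had the lowest signal of its group in *Tnfrsf12a*, *Tnfrsf26* and *Tnfrsf1a*, and the lowest pan-leukocyte mean of the sutured corneas, at 7.73; the part of leukocyte markers in these values was not tested. *Tnfrsf1b* was below the low-signal limit.

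*Cd40*, *Tnfrsf4* (OX40), *Tnfrsf8* (CD30), *Tnfrsf9* (4-1BB), *Tnfrsf11a* (RANK), *Tnfrsf14* (HVEM) and *Tnfrsf19* (TROY) were not called, and their log2 differences from naïve were between -0.28 (*Tnfrsf14* with dexamethasone) and 0.52 (*Tnfrsf11a* with anti-*Vegf*). The last of these passed the adjusted p (0.0329, limma) but not 1.5-fold. Its signal was dim, at 4.39 to 4.46 on naïve and 4.58 to 5.23 on anti-*Vegf* arrays. The T cell costimulators of this group, *Tnfrsf4*, *Tnfrsf8* and *Tnfrsf9*, stayed within -0.17 to 0.21 of naïve. *Tnfrsf8*, *Tnfrsf9*, *Tnfrsf11a*, *Tnfrsf14* and *Tnfrsf19* were below the low-signal limit, so their small differences are read from dim signals.

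*Tnfrsf11b* encodes osteoprotegerin, a secreted decoy for RANKL and TRAIL. The *Tnfrsf11b* signals were 5.88, 5.08, 5.38 and 5.49 in the naïve corneas, 5.82, 5.93, 7.04 and 5.87 with IgG, 6.26, 6.44, 6.38 and 5.93 with anti-*Vegf* and 6.25, 5.70, 7.89 and 6.26 with dexamethasone. Replicate 3 of the dexamethasone group and replicate 3 of the IgG group stood far above the rest of their groups, and dexamethasone replicate 2 and IgG replicates 1 and 4 lay within the naïve range. The log2 difference with dexamethasone was 1.07 ± 0.37 (limma adjusted p = 0.0464), and with IgG and anti-*Vegf* it was 0.71 and 0.80 with no call. The size of the dexamethasone value leans on its replicate 3: without that array the value was 0.61 and not called, while *Tnfrsf11b* was then called with IgG (0.71) and anti-*Vegf* (0.80, also called from the arrays compared alone). The dexamethasone call lay near the limit of the adjusted p and was lost on leaving out 13 of the 16 arrays in turn.

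*Tnfsf12*, *Traf3* and *Traf3ip1* were higher with dexamethasone than with IgG, 3 of 39 members (7.69%) beside 10.6% of all genes (7.41% called higher). *Tnfsf12* and *Traf3ip1* were also higher than with anti-*Vegf*, 2 members (5.13%) beside 7.13% (4.63% called higher). The arrays did not overlap in 4 members against IgG and 3 against anti-*Vegf*, beside 17.2% and 13.9% of all genes. Read from its brightest probe set, no member was called lower with dexamethasone than with either antibody, and 3.16% and 2.5% of all genes were. A dimmer *Traf6* probe set was lower than with IgG. The means of the poly-A controls were 5.17 with dexamethasone against 7.08 with IgG and 6.88 with anti-*Vegf*, *Cd68* was lower with dexamethasone than with both, and their part in these calls was not tested. Between anti-*Vegf* and IgG limma called 0 of 39 members and 0% of all genes, and at an unadjusted p under 0.05 it found 0 members and 6.63% of genes; the ordinary test called 0 members too. Fully separated arrays were seen between them in 0 members and in 5.32% of genes. The counts of members between treatments are small and lean on single arrays: the count against IgG was 1 without IgG replicate 2, dexamethasone replicate 2 or dexamethasone replicate 4, and the count against anti-*Vegf* was 1 without anti-*Vegf* replicate 3.

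**Figure D3:**
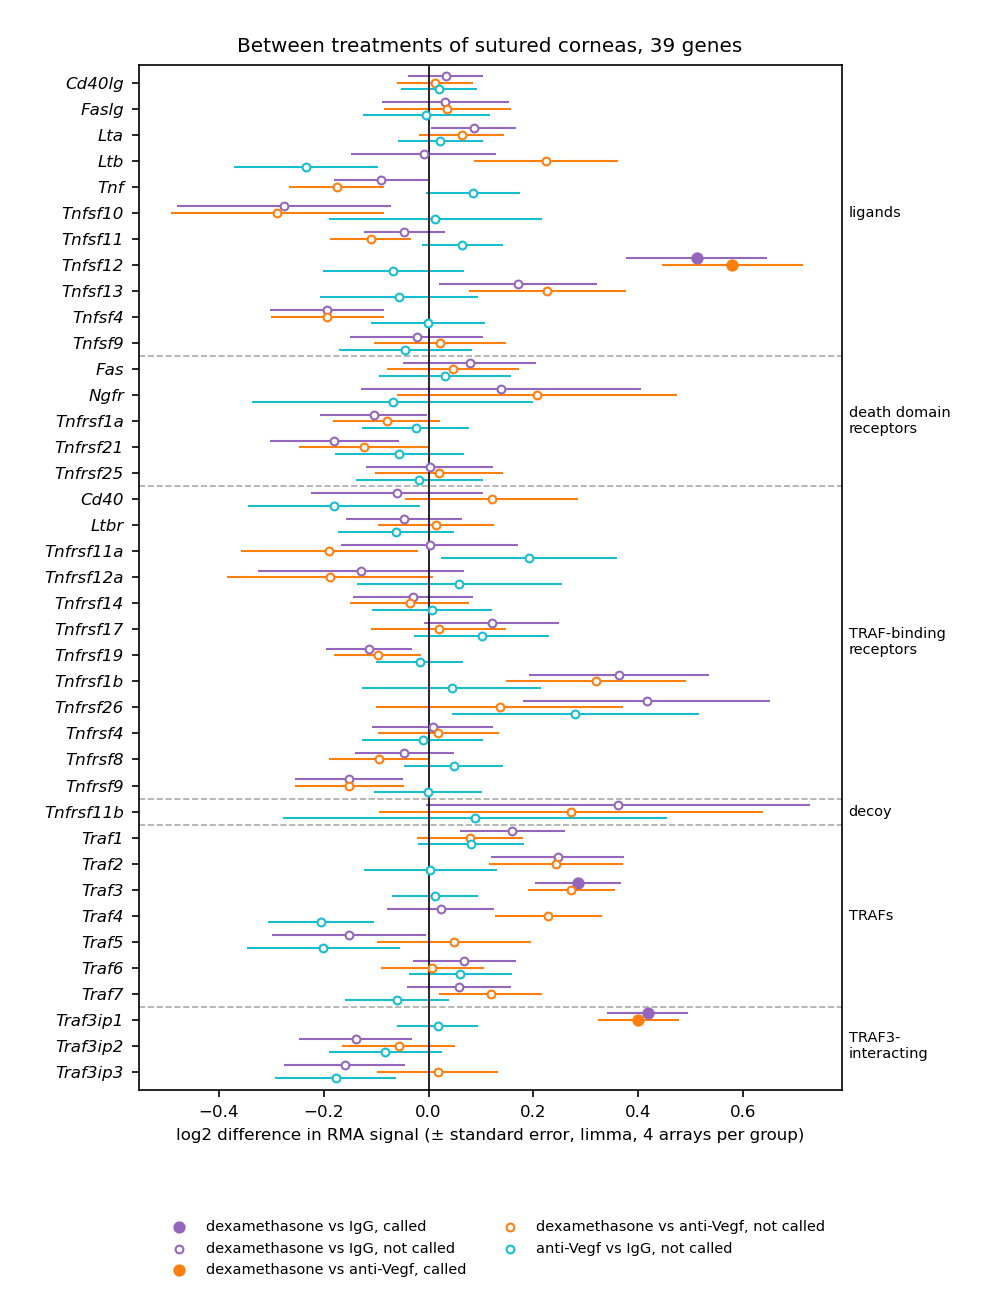
Log2 difference in signal between treatments of sutured corneas (x axis) for the 39 genes (y axis, grouped by role), with limma standard errors as bars. Filled points passed an adjusted p of 0.05: *Tnfsf12* and *Traf3ip1* against both antibodies and *Traf3* against IgG, all higher with dexamethasone.

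*Tnfsf12* encodes TWEAK, the ligand of Fn14. The *Tnfsf12* signals were 7.78, 7.78, 8.03 and 8.03 in the naïve corneas, 7.63, 8.10, 8.24 and 8.21 with IgG, 8.07, 8.14, 7.65 and 8.05 with anti-*Vegf* and 8.53, 8.63, 8.41 and 8.66 with dexamethasone. All 4 dexamethasone arrays lay above the other 12, while the naïve, IgG and anti-*Vegf* groups overlapped. Dexamethasone exceeded naïve by 0.65 ± 0.13, IgG by 0.51 ± 0.13 and anti-*Vegf* by 0.58 ± 0.13 on the log2 scale, at limma adjusted p of 0.00222, 0.025 and 0.018. IgG and anti-*Vegf* differed from naïve by 0.14 and 0.07 with no call. The call against IgG was lost without IgG replicate 1 (0.37) or 2 (0.53) and without dexamethasone replicate 2 (0.49) or 4 (0.48), that against anti-*Vegf* without its replicate 3 (0.47), and that against naïve with reference-gene centring (0.46). Its receptor *Tnfrsf12a*, higher in all sutured groups than in naïve, was not called between treatments: it differed by -0.13 ± 0.20 against IgG and -0.19 ± 0.20 against anti-*Vegf*. Whether probe sets of the neighbouring *Tnfsf12* and *Tnfsf13* share transcripts was not tested.

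*Traf3* is an adaptor that holds back the alternative NF-κB pathway and takes part in interferon induction. The *Traf3* signals were 8.18, 8.18, 8.01 and 8.05 in the naïve corneas, 8.58, 8.30, 8.38 and 8.39 with IgG, 8.36, 8.31, 8.54 and 8.48 with anti-*Vegf* and 8.58, 8.83, 8.71 and 8.66 with dexamethasone. The dexamethasone arrays were all above the naïve and anti-*Vegf* arrays, the lowest of them was level with IgG replicate 1 at this precision, and the IgG and anti-*Vegf* arrays were all above the naïve ones. The log2 difference from naïve was 0.59 ± 0.08 with dexamethasone (limma adjusted p = 9.26e-05), and 0.31 and 0.32 with IgG and anti-*Vegf* (adjusted p = 0.0114 and 0.00886), under 1.5-fold. Against IgG it was 0.29 ± 0.08 (adjusted p = 0.0392) and against anti-*Vegf* 0.27 ± 0.08 (adjusted p = 0.0594, limma), where it was called without IgG replicate 1 or with dim probe sets left out (0.27 in both). The other *Traf3* probe set did not follow: it differed by -0.03 from naïve and by -0.27 from IgG, and with the mean of both the values were 0.28 and 0.01, neither called. With reference-gene centring the value against naïve was 0.40 and not called. That call was also lost without dexamethasone replicate 2 (0.55), naïve replicate 3 (0.56) or naïve replicate 4 (0.57), and the call against IgG without IgG replicate 2, 3 or 4 or dexamethasone replicate 2, 3 or 4 (0.24 to 0.30).

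*Traf3ip1* encodes a protein of intraflagellar transport in cilia that was first found to bind TRAF3. The *Traf3ip1* signals were 7.49, 7.38, 7.35 and 7.37 in the naïve corneas, 7.09, 7.11, 6.94 and 6.96 with IgG, 7.12, 6.99, 6.91 and 7.14 with anti-*Vegf* and 7.56, 7.35, 7.49 and 7.37 with dexamethasone. The naïve and dexamethasone groups overlapped and lay wholly above the IgG and anti-*Vegf* groups, which overlapped each other. Dexamethasone was higher than IgG by 0.42 ± 0.08 and than anti-*Vegf* by 0.40 ± 0.08 (limma adjusted p = 0.00345 and 0.00668), and it differed from naïve by 0.05. IgG and anti-*Vegf* were lower than naïve by log2 -0.37 and -0.35 (adjusted p = 0.00204 and 0.00276), under 1.5-fold. No array left out ended either call. The poly-A controls split the arrays in the same way, and their part in the *Traf3ip1* result was not tested. *Traf3ip2* (Act1, an adaptor of the IL-17 receptor) and *Traf3ip3* were not called, at -0.29 to 0.20 of naïve.

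**Figure D4:**
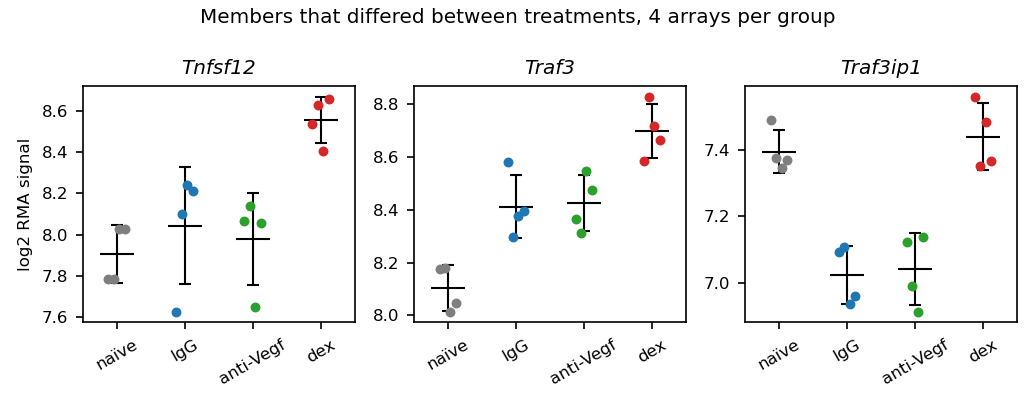
Log2 signal (y axis) of the 3 members called between treatments on each array by group (x axis; dex, dexamethasone), with the group mean and SD in black and a separate scale in each panel. The 4 dexamethasone arrays are the highest in *Tnfsf12*, and in *Traf3* the lowest of them is level with 1 IgG array, whereas in *Traf3ip1* they overlap the naïve arrays and the IgG and anti-*Vegf* arrays are lower.

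Of the other TRAFs, which link receptors to ubiquitin ligases and kinases, none was called. *Traf2*, *Traf4* and *Traf5* passed the adjusted p against naïve in at least 1 comparison but stayed under 1.5-fold: *Traf2* was 0.41 with dexamethasone (limma adjusted p = 0.0304), *Traf4* 0.35 with IgG and 0.37 with dexamethasone (0.017 and 0.0134), and *Traf5* -0.53 with anti-*Vegf* and -0.48 with dexamethasone (0.013 and 0.0254). *Traf1* and *Traf7* differed from naïve by -0.05 to 0.18.

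*Traf6*, the adaptor shared by Toll-like and interleukin-1 receptors, gave different answers by probe set. Its brightest probe set was not called against naïve, at -0.24, -0.18 and -0.17 on the log2 scale. Its signals were 8.78, 8.92, 8.49 and 8.56 in the naïve corneas, 8.58, 8.36, 8.48 and 8.39 with IgG, 8.45, 8.50, 8.46 and 8.62 with anti-*Vegf* and 8.71, 8.42, 8.46 and 8.48 with dexamethasone. The groups overlapped. Of its 3 other probe sets, 1 was called: it read 7.98, 8.35, 7.33 and 7.76 in naïve corneas, 8.72, 8.73, 8.75 and 8.56 with IgG, 8.43, 8.48, 8.74 and 8.32 with anti-*Vegf* and 7.92, 8.00, 7.63 and 8.25 with dexamethasone. On that probe set all IgG arrays were above all naïve and dexamethasone arrays. It rose by 0.84 ± 0.17 with IgG and 0.64 ± 0.17 with anti-*Vegf* (limma adjusted p = 0.00193 and 0.0113), stood at 0.10 with dexamethasone, and was lower with dexamethasone than with IgG (-0.74, adjusted p = 0.0129). The remaining probe sets differed from naïve by -0.13 to 0.11. The called probe set was high in the groups whose poly-A controls were high, whose part in it was not tested, and the sources used here do not say which transcripts each probe set reads.

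Besides *Traf6*, described above, 2 more members had a call on a dimmer probe set that their brightest one lacked. The brightest *Fas* probe set differed from naïve by 0.29, 0.32 and 0.37 with no call. Its dexamethasone value passed the adjusted p (0.048, limma) but not 1.5-fold. A second *Fas* probe set fell by 0.82 with IgG and by 0.83 with anti-*Vegf* (limma adjusted p = 0.0267 and 0.0255). It was -0.70 with dexamethasone, uncalled. The names of both probe sets end in _s_at, the maker's mark for a probe set that may match more than 1 transcript. The brightest *Traf1* probe set stood at -0.05 with IgG, where a dimmer one was called higher at 0.65 (adjusted p = 0.0288, limma). Of the 39 members, 10 have more than 1 probe set. In the comparisons where such a member was called, 3 of 5 readings from its other probe sets had the same sign and 2 of 5 passed the call. The readings with the same sign were all of *Tnfsf13*, and those of *Traf3* all had the opposite sign.

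**Figure D5:**
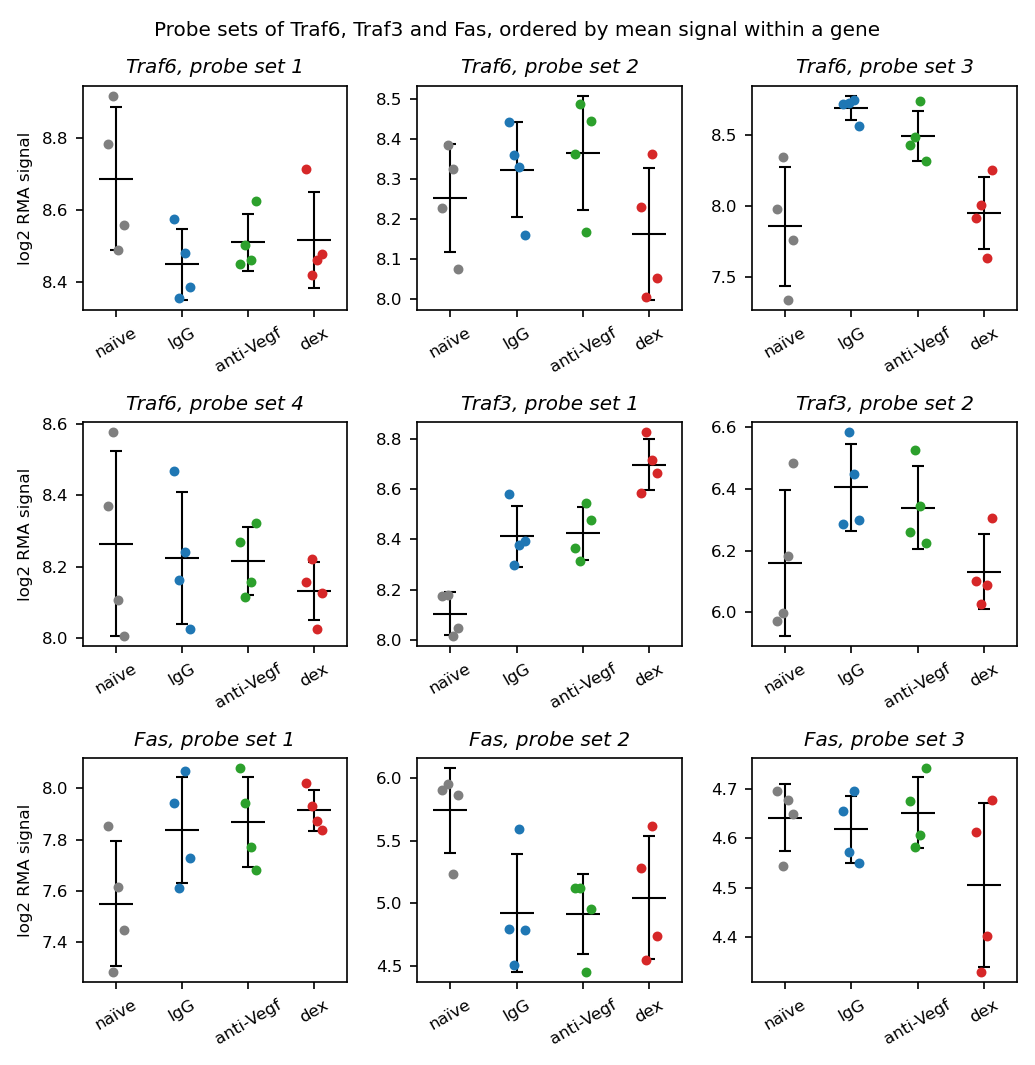
Log2 signal (y axis) of each probe set of *Traf6*, *Traf3* and *Fas* on each array by group (x axis; dex, dexamethasone), numbered by mean signal within a gene, with the group mean and SD in black and a separate scale in each panel. Probe set 3 of *Traf6* is high with IgG and anti-*Vegf*. Probe set 1 of *Traf3* is highest with dexamethasone where its probe set 2 is not. Probe set 2 of *Fas* has a lower mean in each sutured group, but its IgG and dexamethasone arrays overlap the naïve ones. The *Fas* difference with dexamethasone was not called.

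The lists of genes around these receptors are given by role and were chosen with earlier results of these data known. Of 19 measured genes of the receptor complex and its adaptors, 1 rose with IgG (*Trafd1*, a TRAF-binding zinc finger protein, 0.67), 1 with anti-*Vegf* (*Birc3*, the ubiquitin ligase cIAP2, 0.65) and 0 with dexamethasone, and 0 fell. Of all genes, 6.32%, 6.82% and 8.19% were called higher in that order and 5.02%, 5.94% and 4.45% lower. *Tab2*, the brightest of them, differed from naïve by -0.28, -0.30 and -0.25. Between dexamethasone and IgG *Traip* was higher (0.55) and *Xiap*, an inhibitor of caspases, lower (-0.47; -0.50 against anti-*Vegf*). Dexamethasone against IgG and against anti-*Vegf* called 10.6% and 7.13% of all genes. The list's median was -0.14, -0.04 and -0.02 against naïve, beside -0.01, -0.01 and 0.00 over all genes.

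Of 8 measured feedback genes and inhibitors, 4 rose with IgG, 4 with anti-*Vegf* and 5 with dexamethasone, and 0 fell, beside 6.32%, 6.82% and 8.19% of all genes called higher. The median of the list was 0.69, 0.47 and 0.73, beside -0.01, -0.01 and 0.00 over all genes. *Nfkbia*, the NF-κB inhibitor, differed by 0.91, 0.80 and 1.57 from naïve, and *Tnfaip3*, the ubiquitin-editing enzyme A20, by 1.03, 0.83 and 1.55. Both were higher with dexamethasone than with IgG, by 0.67 and 0.51 (limma adjusted p = 0.0215 and 0.0349), and than with anti-*Vegf*, by 0.77 and 0.71 (0.0139 and 0.00907). *Zfp36*, which destabilizes TNF mRNA, and *Tnip1* were also higher than with anti-*Vegf* (0.84 and 0.37), and the deubiquitinase *Cyld* was lower than with either antibody (-0.36 and -0.52). Of all genes, 10.6% were called between dexamethasone and IgG and 7.13% between dexamethasone and anti-*Vegf*. *Tnip2* and *Tnfaip8l2* rose in all 3 sutured groups, by 1.08, 1.08 and 0.81 and by 0.96, 0.85 and 0.76.

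Of 25 genes known to be induced by TNF, 16 rose with IgG, 16 with anti-*Vegf* and 18 with dexamethasone, and 0 fell, beside 6.32%, 6.82% and 8.19% of all genes called higher. Since this list was chosen with earlier results known, these counts describe it and are no test of a TNF response. The other 9, 9 and 7 were not called. The median of the list was 1.61, 1.38 and 1.34, beside -0.01, -0.01 and 0.00 over all genes. The 8 pan-leukocyte genes rose in the same comparisons, and their part in these values was not tested. *Ccl2*, a chemokine for monocytes, differed from naïve by 6.48, 6.73 and 6.05, and *Mmp3*, a matrix protease, by 5.74, 6.11 and 5.64. *Ccl7* differed by 4.22, 4.43 and 3.93 and *Il6* by 3.76, 3.23 and 3.32. *Mmp14*, the brightest of the list, was not called (0.43, 0.42 and 0.39). Other signals than TNF induce these genes too. Between treatments 1 of 25 was called, *Socs3*, lower with dexamethasone than with IgG (-1.24, limma adjusted p = 0.00497), where 10.6% of all genes were called.

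Of 6 genes of the death branch, the kinase *Ripk3* rose in each sutured group (1.65, 1.80 and 1.68), *Dap*, the brightest, fell (-0.92, -1.25 and -1.09), and *Bid*, a link from death receptors to mitochondria, rose with dexamethasone (0.80). *Bid* was also higher with dexamethasone than with IgG (0.39) and anti-*Vegf* (0.46). Of 7 genes that shed or process the ligands and receptors, none rose past 1.5-fold. *Adam17*, the protease that releases TNF and the brightest of the list, was higher by 0.50, 0.52 and 0.43, under 1.5-fold, at limma adjusted p of 0.00168, 0.0012 and 0.00558. *Timp3*, an inhibitor of it, fell with IgG (-0.69) and anti-*Vegf* (-1.16) and was -0.43 with dexamethasone, uncalled. *Adam10* was lower with dexamethasone than with IgG (-0.33) and anti-*Vegf* (-0.40). Beside these lists, 6.32%, 6.82% and 8.19% of all genes were called higher than naïve with IgG, anti-*Vegf* and dexamethasone, and 5.02%, 5.94% and 4.45% lower. Dexamethasone differed from IgG in 10.6% of all genes and from anti-*Vegf* in 7.13%.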

How the data were processed

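RNA of 16 corneas was read on Affymetrix GeneChip arrays. The submitters' notes name RMA and Affymetrix Expression Console; the authors corrected and normalized the scans there and deposited log2 signals per probe set, which were used as they stand, with 0 sample columns left out. Genes were named from the platform's annotation: 20826 of 31042 probe sets carry 1 symbol, those with several or none were given no gene, and 57 control probe sets were not tested. All 39 member gene IDs were found in RefSeq.

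A mean was fitted for each of the 4 groups (R 4.3.3, limma 3.58.1), which left 12 residual degrees of freedom, followed by eBayes moderation and Benjamini-Hochberg adjustment over 31042 probe sets within a comparison. The code was tested on simulated data. Where a gene had several RefSeq promoters the first was searched. Sequences and figures were handled in Python 3.11.15 with pandas 2.3.3 and matplotlib 3.10.9.

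The members and the lists of pathway and marker genes were chosen with earlier results of these data known. Every member was accounted for. Array values were given for called members with an absolute log2 change of at least 1, for those called between treatments, and for *Tnf*, *Tnfsf12*, *Traf3* and *Traf6*; those of *Tnfrsf1b* and of other probe sets were added after their values were seen. From each pathway list the brightest gene and up to 4 called genes with the largest changes were named. The genes called between treatments in the feedback list were added after their values were seen, as were *Socs3* and the markers called between treatments. Replicate numbers follow the order of the samples and pair nothing, and the p-values measure the spread between corneas. No arrays were identical, and correlations between arrays were 0.963 to 0.995. The alternatives were an ordinary test, trend and robust moderation, array weights, only the arrays compared, cyclic loess, reference genes, a filter on low signals, the mean of probe sets, any probe set, another fold rule and leaving out each array.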

Additional observations from a re-analysis of the deposited data

Results flagged for a closer look

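Among 156 sets of 4 arrays (39 members in 4 groups), 5 held an array set apart from the other 3 by Dixon's criterion, and chance gives about 7.8. *Tnfrsf11b* read 7.04 in IgG replicate 3, where the others were 5.82 to 5.93. *Tnfsf13* read 9.08 in IgG replicate 4 (others 8.54 to 8.59), and *Ltbr* 10.7 in IgG replicate 1 (others 10.4). Anti-*Vegf* replicate 3 was low in *Tnfsf12*, at 7.65 (others 8.05 to 8.14), and high in *Tnfsf9*, at 6.75 (others 6.10 to 6.18). The cause was not tested.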

How the results depend on the processing

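Of 60 refits of the 6 counts of called members under 10 other settings, 54 stayed within 1.5 times the count. With any probe set of a gene the IgG count was 8, which added *Fas* (lower), *Traf1* and *Traf6*. With no fold limit the counts against naïve were 10 for IgG, 11 for anti-*Vegf* and 15 for dexamethasone, beside 29.2%, 30.6% and 28.5% of all genes. With 1.5-fold asked between treatments they were 0 for dexamethasone against IgG and 0 against anti-*Vegf*. *Traf6* reversed with any probe set, to 0.84 with IgG, 0.64 with anti-*Vegf* and -0.74 for dexamethasone against IgG; its called probe set gives these values. Leaving out 1 array gave 5 to 6 members with IgG, 4 to 6 with anti-*Vegf*, 7 to 9 with dexamethasone, 1 to 4 for dexamethasone against IgG, 1 to 3 against anti-*Vegf* and 0 for anti-*Vegf* against IgG.

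Of 714 refits of 72 changes of single members under the other settings, 684 kept direction and call, 21 lost a call, 6 gained one and 3 reversed; of 1152 refits without 1 array, 1117 kept both, 30 lost a call and 5 gained one. *Tnfrsf12a*, *Tnfrsf1a* and *Tnfrsf26* kept every call against naïve. *Tnfrsf11b* lost its call under 5 settings. Of 11 reference genes named for centring, 7 were measured under a single symbol and used. The causes were not tested. Dim members are limited by background, and 4 arrays a group limit the precision.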
